A study of Mus musculus with 18 samples.

Results

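The genes described here are 35 that act in G2 phase and mitosis, of 24967 genes measured on Agilent mouse arrays. They were taken by gene name: of 58 probes on the array that carried the name of a member, the brightest probe of each gene was used, and 35 of 35 members had a probe that passed the filter on dim signals. All of them were well above background in 100% of the channels of every kind of RNA. Each level is a log2 array signal, and levels of different probes were not compared with each other. RNA came from 3 clones (8, A6 and B2) of mouse induced pluripotent stem cells (iPSC) labelled Dnmt3ab deficient, from the same 3 clones when they showed signs of differentiation, and from 4 control iPSC lines numbered 3 to 6. Dnmt3a and Dnmt3b are the enzymes that methylate previously unmethylated DNA. V6.5, a mouse embryonic stem cell (ESC) line, and mouse embryonic fibroblasts (MEF) served as reference RNAs, each a single RNA read on 3 arrays. The clone or line was the replicate, and the labels give neither strain nor the alleles of the lines. All iPSC had been grown on irradiated MEF feeders and passaged on gelatin before RNA was taken, and RNA left from feeders was not measured apart. The question was how RNA levels of the deficient lines compare with those of the control lines.

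Cells enter mitosis when cyclin B with its kinase is activated by the phosphatase Cdc25c. The spindle checkpoint proteins then hold back Cdc20 and the anaphase promoting complex until chromosomes are attached. That complex marks securin (Pttg1) and the cyclins for destruction, after which the chromosomes separate and the cell divides. RNAs of these proteins rise together late in the cell cycle, and pluripotent stem cells, which divide fast with a short G1 phase, are known for high levels of them. In whole cultures such as these, fewer dividing cells and less RNA per cell cannot be told apart.

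Promoters of many such genes hold a cell cycle genes homology region (CHR), an element bound by complexes with B-Myb or with repressive E2F and pocket proteins, and CCAAT boxes, which NF-Y binds. RefSeq promoter entries (build GRCm38.p6) were listed for 29 of 35 members, and the 250 bases before the most upstream listed start were searched on both strands for the CHR element TTTGAA, for its variants with the letters TTCGAA and, less strictly, TTTAAA, and for CCAAT. Overlapping matches counted separately. A CHR match lay in 15 of 29 members (51.7%), against 26.6% of 27025 genes with an entry, and within 100 bases of the start in 9 (31%) against 10.3%. CCAAT lay in 22 members (75.9%) against 34.5%, and 14 members (48.3%) held over 1 match against 10.5%. Of 66 matched genes in the list of other G2 and M phase genes, 42.4% held a CHR match and 62.1% a CCAAT match. Among 42 genes of G1/S and DNA replication the shares were 19% and 59.5%. Among 11 fibroblast marker genes they were 45.5% (5 genes) and 27.3%, and the CHR share within 100 bases was 27.3%, so the CHR shares of the members were not set apart from those of these genes. These are matches of letters, given as a description with no test.

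The 6 promoters below belong to members with a CHR match that were called in a comparison with the control lines, and show how the elements are arranged. Each is the 250 bases before the start, 5′ to 3′ on the gene's strand, with CHR and CCAAT matches of either strand in capitals. Top2a is at chr11:99024190-99024439 (minus strand), Ube2c at chr2:164769679-164769928 (plus), Kif11 at chr19:37376132-37376381 (plus), Bub1b at chr2:118597961-118598210 (plus), Kif2c at chr4:117178773-117179022 (minus) and Birc5 at chr11:117848987-117849236 (plus).
Top2a: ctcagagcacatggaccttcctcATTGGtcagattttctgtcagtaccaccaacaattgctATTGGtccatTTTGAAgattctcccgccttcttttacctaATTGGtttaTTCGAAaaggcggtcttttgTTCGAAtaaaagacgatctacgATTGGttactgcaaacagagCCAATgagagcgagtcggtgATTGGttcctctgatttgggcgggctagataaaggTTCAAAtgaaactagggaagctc
Ube2c: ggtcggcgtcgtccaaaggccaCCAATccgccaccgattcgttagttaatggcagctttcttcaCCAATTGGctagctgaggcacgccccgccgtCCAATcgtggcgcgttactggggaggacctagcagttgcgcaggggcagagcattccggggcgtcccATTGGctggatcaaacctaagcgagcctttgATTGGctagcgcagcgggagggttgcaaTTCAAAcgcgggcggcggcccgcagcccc
Kif11: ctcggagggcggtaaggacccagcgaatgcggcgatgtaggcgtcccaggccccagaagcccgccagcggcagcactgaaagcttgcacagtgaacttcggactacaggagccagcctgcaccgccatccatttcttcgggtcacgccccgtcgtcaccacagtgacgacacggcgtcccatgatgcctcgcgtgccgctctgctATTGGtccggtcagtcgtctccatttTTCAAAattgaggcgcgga
Bub1b: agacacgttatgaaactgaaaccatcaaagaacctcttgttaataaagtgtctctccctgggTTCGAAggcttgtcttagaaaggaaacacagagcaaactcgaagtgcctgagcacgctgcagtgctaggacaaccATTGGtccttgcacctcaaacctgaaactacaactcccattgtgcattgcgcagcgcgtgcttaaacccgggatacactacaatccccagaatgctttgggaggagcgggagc
Kif2c: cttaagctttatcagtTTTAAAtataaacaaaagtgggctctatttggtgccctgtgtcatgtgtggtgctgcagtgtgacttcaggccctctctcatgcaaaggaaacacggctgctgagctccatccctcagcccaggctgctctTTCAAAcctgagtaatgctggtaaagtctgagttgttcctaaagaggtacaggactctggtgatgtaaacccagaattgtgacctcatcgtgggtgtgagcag
Birc5: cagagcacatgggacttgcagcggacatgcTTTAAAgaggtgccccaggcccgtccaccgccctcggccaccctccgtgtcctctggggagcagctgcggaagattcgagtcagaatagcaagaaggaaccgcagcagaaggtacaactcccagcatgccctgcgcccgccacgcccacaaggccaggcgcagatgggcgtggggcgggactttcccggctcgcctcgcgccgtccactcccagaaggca

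In Top2a the CHR match nearest the start began 23 bases before it, with 6 CCAAT matches upstream, the nearest at 58 bases. Ube2c had the same order, a CHR match at 29 bases and the nearest of 6 CCAAT matches at 57. Kif11 had a CHR match at 19 bases and a CCAAT match at 45. Bub1b, Kif2c and Birc5 had their nearest CHR match at 188, 103 and 220 bases, and Kif2c and Birc5 held no CCAAT in this window.

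**Figure D1:**
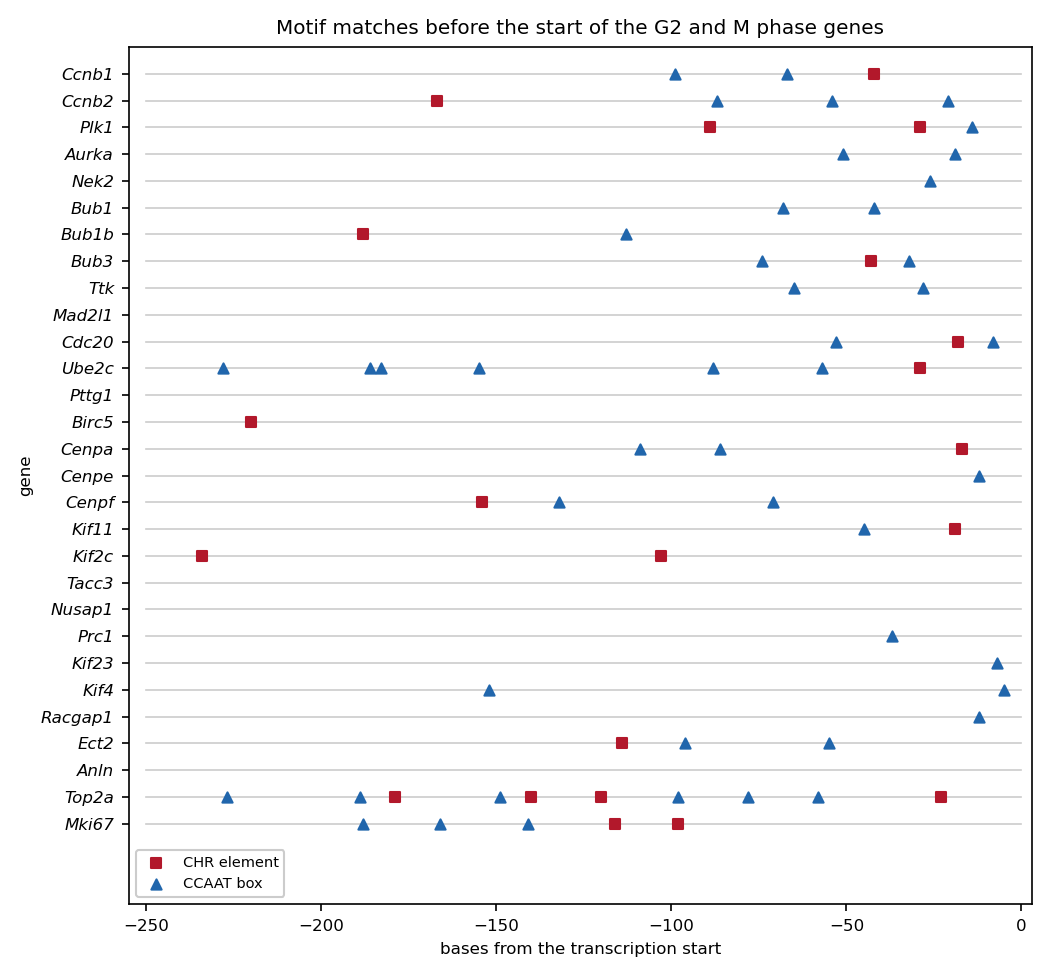
Matches of CHR elements (squares) and CCAAT boxes (triangles) in the 250 bases before the transcription start of the 29 members with a promoter entry; the horizontal axis is the distance from the start in bases. CHR matches lie in 15 members and CCAAT matches in 22, in 20 of these 22 within 100 bases of the start.

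The 36 channels of 18 arrays were read on 2 scan days. Deficient clones, ESC and MEF were on the first day and control lines and differentiating clones on the second, so scan day cannot be told apart from deficiency in the comparison with control iPSC, nor from state in that of the same clones. The share of probes well above background per channel was 69.69% to 78.87% on day 1 and 75.58% to 92.55% on day 2. Dnmt3a was at 8.97, 9.87 and 9.77 in deficient clones 8, A6 and B2 and at 10.52 to 11.34 in control lines. Its difference was -1.48 ± 0.277 (SE; limma adjusted p = 0.00539). Dnmt3b was at 12.34 to 13.50 in deficient and 12.41 to 14.00 in control lines, a difference of -0.32 ± 0.449 (adjusted p = 0.595). Where these probes lie relative to the deleted parts is not given in the sources used here, so a level near that of the controls checks nothing. Marker lists followed the labels of the reference RNAs: 18 of 18 fibroblast genes were lower and 13 of 14 pluripotency genes higher in deficient iPSC than in MEF.

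Against MEF, every member rose in the deficient iPSC: 35 of 35 were called higher, where 28.2% of all genes were. Called means a Benjamini-Hochberg adjusted p under 0.05 over all genes in limma. The median difference of the members was 1.55 on the log2 scale, from 0.40 (Bub3) to 2.60 (Bub1), beside -0.01 over all genes. The median was 1.56, 1.60 and 1.54 in clones 8, A6 and B2 taken alone, with 35 of 35 members above 0 in each. MEF also lay below the lowest of the 10 iPSC values (lines and states) for 35 of 35 members, against 32.4% of all genes. Control lines and differentiating clones were read on the other scan day, so this count rests on levels normalized between days. For Tacc3, MEF and control line 5 both rounded to 12.07, and the control mean was 0.16 above MEF. The part of scan day in this count was not tested. The MEF RNA was read in 1 dye only, and the dye terms of the members, fitted over all arrays with dye orientations swapped within a comparison on the other scan day alone, ran from -0.23 to 0.30, beside differences of 0.27 or more for a single clone; the part of dye was not tested. Its own spread was not measured, so these p-values concern this RNA and not MEF in general.

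Among cyclins and mitotic entry kinases the median difference from MEF was 1.63. Ccnb1, the cyclin B that drives entry into mitosis, was at 13.51, 13.71 and 13.54 in the deficient clones and at 11.24 in MEF, a difference of 2.38 ± 0.116 (SE; adjusted p = 2.3e-11). Nek2, a centrosome kinase, was higher by 2.02 ± 0.0895 and the mitotic kinases Aurka by 1.72 ± 0.0864 and Plk1 by 1.55 ± 0.122. Cdc25c changed least of these, by 0.98 ± 0.102. In the spindle checkpoint, Bub1, a kinase at the kinetochore, was at 13.32, 13.24 and 13.37 against 10.68, the largest difference of the members (2.60 ± 0.13; adjusted p = 3.15e-11). Bub3, its binding partner, was at 13.94, 13.88 and 13.84 against 13.50, the smallest (0.40 ± 0.0493; adjusted p = 2.28e-06). These ranks are those of the chosen probes: another Bub3 probe of the same transcript record differed by 0.78. Ttk was higher by 1.83 ± 0.088, Bub1b by 1.71 ± 0.154 and Mad2l1 by 1.54 ± 0.101.

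Of the partners of the anaphase promoting complex, its activator Cdc20 was higher by 1.87 ± 0.0794 and its ubiquitin-conjugating enzyme Ube2c by 1.90 ± 0.0837, while the substrate Pttg1 was higher by 0.98 ± 0.19. In the chromosomal passenger complex, the kinase Aurkb was higher by 1.78 ± 0.138, the scaffold Incenp by 1.42 ± 0.0732 and Birc5 (survivin) by 0.80 ± 0.0793. The kinetochore protein Cenpf was higher by 2.07 ± 0.124, the centromeric histone Cenpa by 1.62 ± 0.103 and the kinetochore motor Cenpe by 0.93 ± 0.19. Nusap1, which bundles spindle microtubules, was at 13.35, 13.20 and 13.27 against 10.73 in MEF, a difference of 2.55 ± 0.127. The spindle motors Kif2c and Kif11 were higher by 1.87 ± 0.108 and 1.84 ± 0.108, and Tpx2 and Tacc3, which act in spindle assembly, by 1.22 ± 0.0756 and 0.96 ± 0.115. For cytokinesis, the exchange factor Ect2 was highest with 2.51 ± 0.116, and the scaffold Anln lowest with 0.45 ± 0.0906. The other 5 cytokinesis genes lay between 0.86 ± 0.0922 (Prc1) and 1.54 ± 0.0801 (Kif20a). Top2a, the topoisomerase that untangles chromosomes, was at 13.77, 13.61 and 13.77 against 11.58, a difference of 2.11 ± 0.0774 (adjusted p = 6.67e-13), and the proliferation marker Mki67 differed by 0.89 ± 0.116. Where 17 members had over 1 kept probe, 23 of 23 other probes differed from MEF in the same direction as the chosen probe. The same count was 13 of 23 against control iPSC, 18 of 23 for differentiating clones against control, 14 of 23 between the states of the clones and 15 of 23 against ESC.

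**Figure D2:**
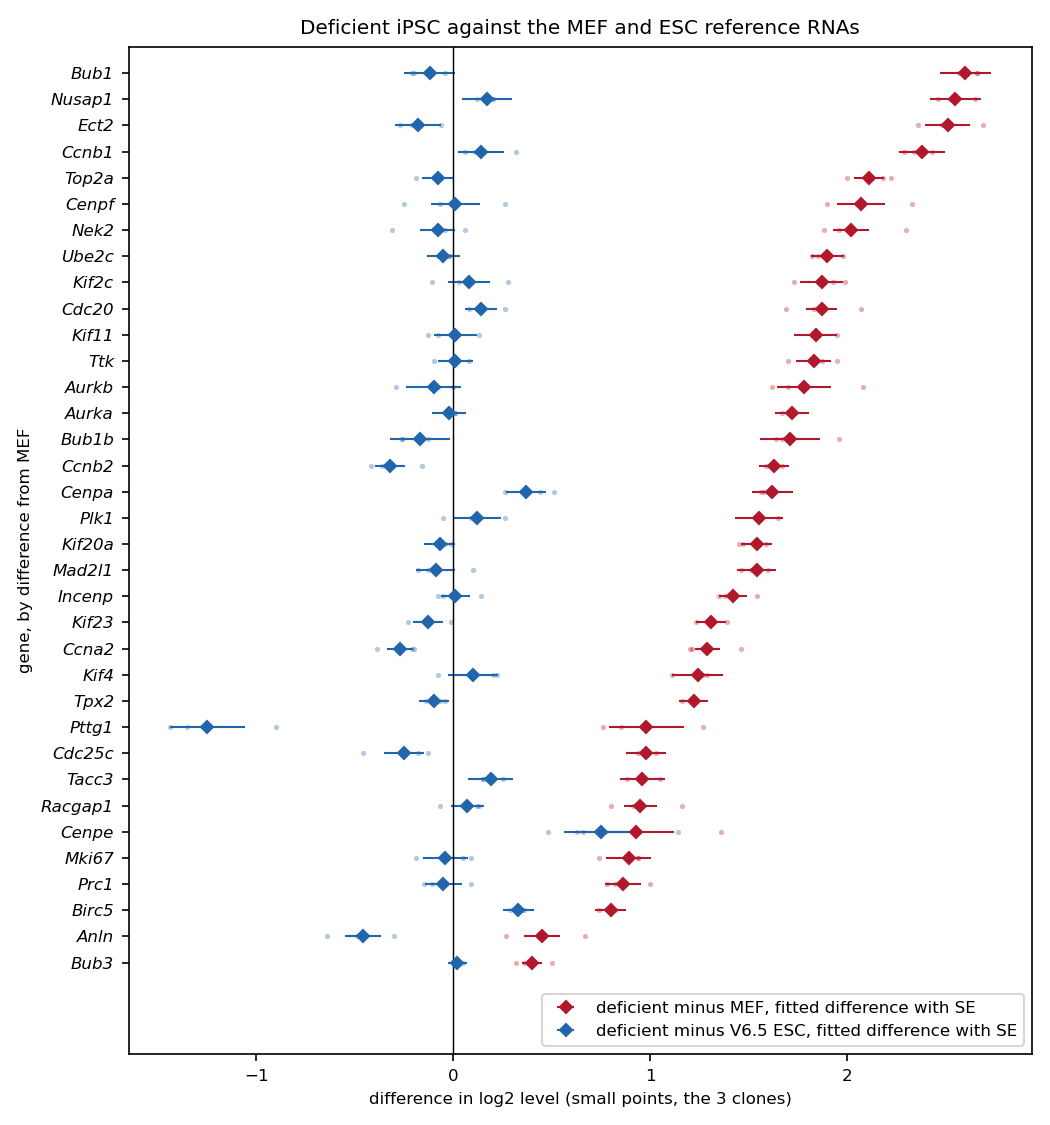
Difference in log2 level between deficient iPSC and MEF (red) or V6.5 ESC (blue) for each of the 35 members; diamonds are fitted differences with SE bars and small points the 3 clones. All 35 differences from MEF lie above 0, from 0.40 to 2.60, while those from ESC lie on both sides of 0, with Pttg1 at -1.25.

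The rest of the cell cycle program gave the following counts against MEF, beside 28.2% of all genes called higher and 30% called lower. Of 80 other G2 and M phase genes measured, 68 rose and 4 fell, with a median difference of 1.37. Hmgb2, Cdca5 and Kif18a had the largest rises (2.85, 2.46 and 2.44), and Ndel1, a dynein regulator, the largest fall (-2.09). All 7 measured condensin subunits rose (median 1.44), as did 53 of 54 genes of G1/S and DNA replication (median 1.86) and 10 of 12 of cohesin and its regulators (median 0.55). Subunits and regulators of the anaphase promoting complex were divided, with 6 higher and 6 lower of 17 (median -0.04). Of 16 regulators that bind G2 and M promoters 13 rose, led by Mybl2 (B-Myb) with 3.41 ± 0.112, and Rbl2, a pocket protein, fell (-1.04). G1 cyclins and kinases went both ways, with 5 of 9 higher, such as Cdk2 (1.09), and 3 lower, Ccnd2 (-3.61), Cdk6 (-2.49) and Ccnd1 (-1.38), so that their median (0.34) and mean (-0.41) differ in sign. Cell cycle inhibitors went the other way, with 12 of 17 lower and 1 higher (median -1.08); Cdkn2b fell by 3.53 on the log2 scale, and the gene that rose was Cdkn3 (0.59), a phosphatase that acts on cyclin-dependent kinases. The fibroblast list fell with a median of -4.02, led by Col1a1 at -6.25. Its summed level was 20.88 in MEF and 16.34 to 17.56 over deficient and control iPSC.

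Compared with the control iPSC lines, the deficient clones had higher levels of 10 members and a lower level of 1. This is 28.6% of the members higher, beside 15.3% of all genes called higher and 31.1% called lower. The median difference of the members was 0.16 on the log2 scale, beside -0.06 over all genes. The 10 were Top2a, Tacc3, Bub1b, Kif11, Birc5, Ube2c, Kif2c, Racgap1, Incenp and Ttk, and their lines did not overlap with the control lines (17.1% of all genes were higher with no overlap). With the chosen probes, no member grouped under cyclins and mitotic entry kinases or under centromere and kinetochore passed the test. Other probes of these genes differed by -0.01 (Cdc25c), 0.05 (Cenpa), 0.28 and 0.33 (Ccnb1), 0.39 and 1.07 (Cenpe) and 0.75 (Cenpf), given without a test. The calls against control iPSC rest on 46.4% of all genes being called between arrays of different scan days. Without normalization between arrays, 31 members were called higher and the median of all genes moved to 0.44, above the member median of 0.41.

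Top2a had the largest difference. Its level was 13.77, 13.61 and 13.77 in deficient clones 8, A6 and B2 and 12.69, 12.54, 12.54 and 12.64 in control lines 3 to 6, a difference of 1.12 ± 0.061 (SE; adjusted p = 0.000158). All deficient clones lay above every control line. Its probe is at chr11:99104969-99105783 in the mm7 positions of the files. A dimmer Top2a probe differed by 0.98, and the dimmest, which matched a separate transcript record, by -0.10. Tacc3, a centrosome and spindle protein that helps stabilise microtubules, was at 13.07, 13.10 and 13.01 against 12.20, 12.14, 12.07 and 12.48, a difference of 0.83 ± 0.099 (adjusted p = 9e-04). Control line 6 was the highest of the control lines and still lay below every deficient clone.

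Smaller differences passed in several complexes. Birc5 was at 15.60, 15.66 and 15.62 against 15.19, 15.24, 15.29 and 15.24, a difference of 0.39 ± 0.0375 (adjusted p = 0.00045), and its partner Incenp differed by 0.21 ± 0.0564 (adjusted p = 0.0215). The groups are narrow and apart for both genes. Aurkb, the kinase of the same complex, had a difference of 0.30 ± 0.136 that did not pass (adjusted p = 0.108). Among checkpoint genes, the kinase-like protein Bub1b was at 13.29, 13.05 and 13.06 against 12.71, 12.61, 12.84 and 12.21, a difference of 0.54 ± 0.155 (adjusted p = 0.028), and Ttk differed by 0.20 ± 0.057 (adjusted p = 0.0253). Bub1, Bub3 and Mad2l1 had values of -0.05, -0.02 and -0.12 with the chosen probes. Other probes differed by 0.28, 0.26 and -0.03 (Bub3) and by 0.01 (Mad2l1), given without a test. Nusap1 and Mki67 also depended on the probe, with 0.12 and -0.02 for the chosen probes and 0.96 and 0.38 for the dimmer ones. The motors Kif11 and Kif2c differed by 0.40 ± 0.0788 and 0.34 ± 0.0622, Ube2c by 0.36 ± 0.0839 and Racgap1, a regulator of the contractile ring, by 0.24 ± 0.0657. Prc1, which bundles the microtubules of the central spindle, was the 1 member lower: it was at 14.57, 14.34 and 14.35 against 14.68, 14.62, 14.80 and 14.55, a difference of -0.24 ± 0.0829 (adjusted p = 0.0495). Its groups overlapped, and without normalization between arrays its difference was 0 (adjusted p = 0.987).

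Leaving out 1 line at a time, Top2a, Tacc3, Birc5, Kif11, Kif2c and Ube2c passed in 7 of 7 fits. Bub1b passed in 3, Ttk and Racgap1 in 4, Incenp in 5 and Prc1 in 2. Without control line 4 the number of members called higher was 6, and without control line 6 it was 16. With slide as a random block it was 5, and Birc5 (adjusted p = 0.287) and Kif2c (adjusted p = 0.17) were no longer called. The share of all genes called in each of these fits is not given here, so the counts do not tell the members from other genes. V6.5 ESC, read on the slides of the deficient clones, lay above the highest control line for 10 of the 10 members called higher, and for 86.7% of all 3821 genes called higher. For Top2a the ESC level was 13.83, for Tacc3 12.90 and for Bub1b 13.38. The summed level of fibroblast markers was 16.34 to 16.42 in deficient clones and 16.90 to 17.56 in control lines, with 12 of 18 genes called lower and 3 higher. That of pluripotency markers was 18.60 to 18.96 and 18.20 to 18.71. The part of scan day, of feeder cells and of cell state in these differences was not tested.

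**Figure D3:**
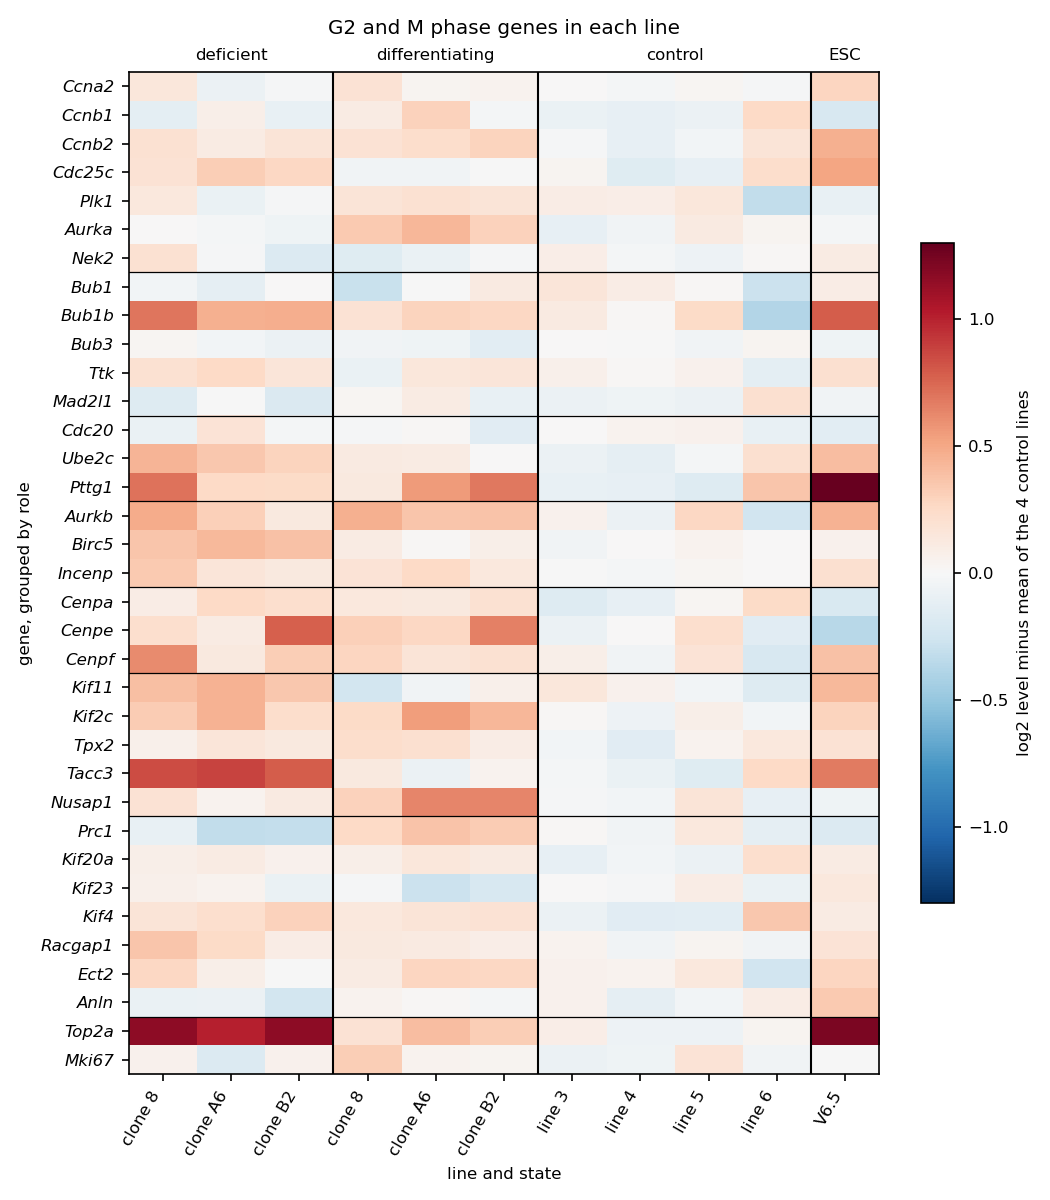
Log2 level of each member minus its mean over the 4 control lines, for deficient clones, differentiating clones, control lines and V6.5 ESC, with genes grouped by role; red is above and blue below the control mean, and the colour scale ends at 1.3 in both directions, which the ESC value of Pttg1 (1.64) exceeds. Top2a and Tacc3 stand out in the deficient clones and in ESC, and lie nearer the control mean in the differentiating clones.

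The wider program differed in the same comparison. Of 80 other G2 and M phase genes, 30 were called higher and 4 lower (median difference 0.20). Knl1, a kinetochore scaffold, had the largest difference with 1.60 ± 0.138, followed by Ckap2 (0.83) and Iqgap3 (0.82), while Sass6 (-0.50) and Ndel1 (-0.36) were lowest. Of 54 genes of G1/S and DNA replication, 22 were higher and 2 lower (median 0.19), with Gins3 (0.77), Rpa3 (0.70) and Fen1 (0.68) highest. Of 12 cohesin genes 2 were higher and 4 lower, shares close to those of all genes (15.3% and 31.1%), with Esco2 at 0.55 and Stag2 at -0.88. Of 17 inhibitors 2 were higher, Cdkn3 (0.89) and Rb1 (0.73), and 1 lower, Cdkn2c (-0.26), which is no more than among all genes. Cdk6, a G1 kinase, had a difference of -1.16 ± 0.124.

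The deficient clones with signs of differentiation shared every array with a control line, so scan day and slide did not separate these groups. Here 5 members were called higher and 0 lower, beside 2.28% of all genes called higher and 2.47% lower. At an unadjusted p under 0.05, 11 members passed (31.4%), beside 21.2% of all genes. The median difference was 0.13 on the log2 scale, beside 0 over all genes. Lines did not overlap for 12 members in the higher direction (10% of all genes) and for 1 in the lower, Bub3 (9.69% of all genes). The median was 0.17, 0.14 and 0.09 on the slides of clones 8, A6 and B2, with 27 of 35 members above 0 on each slide. The slides used the same control lines, so these counts are not independent of each other. In the comparison between lines 28 of 35 members lay above 0, beside 12862 of 24967 genes.

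Nusap1 had the largest difference of the 5, with 13.46, 13.79 and 13.79 in differentiating clones 8, A6 and B2 against 13.14, 13.12, 13.32 and 13.05 in control lines 3 to 6, or 0.52 ± 0.103 (SE; adjusted p = 0.0442). Every differentiating clone lay above every control line. Kif2c, which removes faulty microtubule attachments, was at 11.36, 11.66 and 11.54 against 11.13, 11.05, 11.19 and 11.08, a difference of 0.41 ± 0.0754 (adjusted p = 0.0399). Aurka was at 15.45, 15.54 and 15.41 against 15, 15.06, 15.23 and 15.15, or 0.36 ± 0.0654 (adjusted p = 0.0397). Prc1 was at 14.92, 15.03 and 14.99 against 14.68, 14.62, 14.80 and 14.55, or 0.32 ± 0.0657 (adjusted p = 0.0485). Incenp differed by 0.19 ± 0.0379 (adjusted p = 0.0441). None of the 5 overlapped with the control lines. Top2a was 0.30 ± 0.0641 above control and did not pass (adjusted p = 0.0515), although its groups did not overlap. Tacc3, at 12.35, 12.15 and 12.27, differed by 0.03 ± 0.106 (adjusted p = 0.934).

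The calls were sensitive to the lines used. Leaving out clone A6, clone B2, control line 3 or control line 4, 0 members were called, and at most 5 genes higher and 23 lower over all genes. Without clone 8 there were 3, and without control line 6 there were 11, with calls over all genes in those fits not given here. With the scanner software's processed signals 0 members were called, with an adjusted p of 0.0538 for Aurka and 0.0527 for Nusap1, and the differences themselves kept their size (0.36 and 0.53). With the log ratios of the authors' deposited table, in a fit over arrays that repeat the same lines, 18 members were called higher and 2 lower. That fit takes arrays and not lines as replicates, so its counts cannot be compared with those above. Calls over all genes with processed signals and with this table are not given here, so these counts do not set the members apart from other genes. Of 80 other G2 and M phase genes 6 were higher and 1 lower (median 0.11), among them Cdca2 (0.42), Cdca3 (0.40) and Spc25 (0.39). Of 17 inhibitors 3 were higher, Gadd45g (1.81 ± 0.263), Cdkn1c (0.52) and Cdkn2c (0.52). Endoderm markers moved in the same comparison: 5 of 15 were higher, with Cubn, Foxa2 and Gata6 at 3.81, 2.67 and 2.61, and their summed level was 16.94 to 17.48 against 16.21 to 16.68 in control lines. Fibroblast markers were lower for 4 of 18, with a summed level of 16.43 to 16.73. Their part in the members' differences was not tested.

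**Figure D4:**
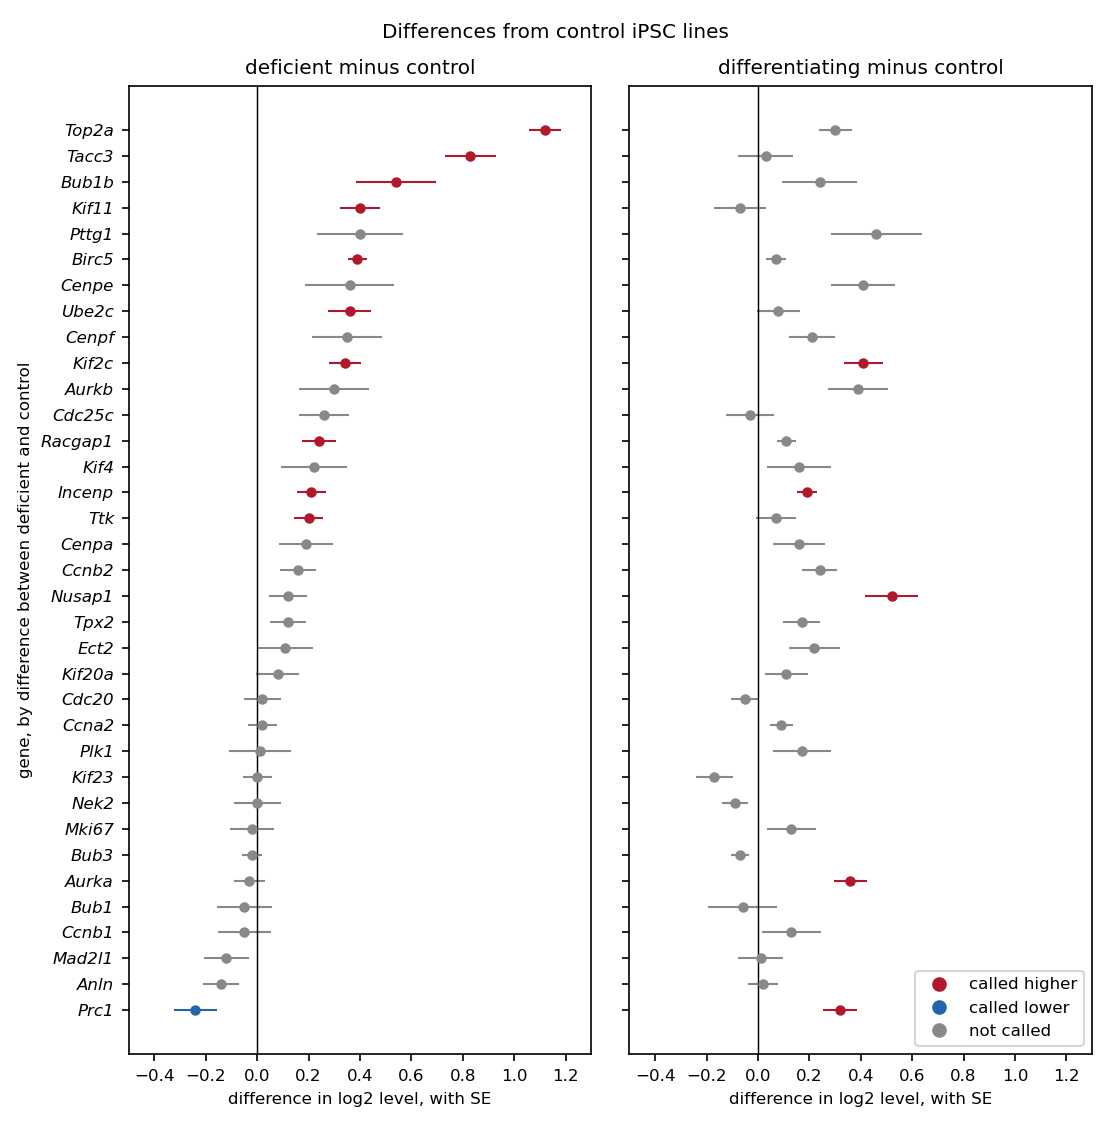
Fitted differences in log2 level with SE bars from the 4 control lines, for deficient clones (left) and differentiating clones (right), with genes in the order of the left panel; red is called higher, blue called lower and grey not called. In the left panel 10 members are called higher and Prc1 lower, in the right panel 5 are higher, and Incenp and Kif2c are called higher in both, while Prc1 is called lower in the left and higher in the right.

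Between the states of the same 3 clones, paired by clone, 4 members were higher with signs of differentiation and 7 lower, beside 33.3% and 19.3% of all genes. These shares are not above the background of all genes in the higher direction, and 20% of the members in the lower direction is close to it. Prc1 rose by 0.56 ± 0.0817 (adjusted p = 0.00921), Nusap1 by 0.41 ± 0.108 (adjusted p = 0.0387), Aurka by 0.38 ± 0.047 (adjusted p = 0.00672) and Anln by 0.15 ± 0.0434 (adjusted p = 0.0459). Top2a fell by 0.81 on the log2 scale (SE 0.0822; adjusted p = 0.005) and Tacc3 by 0.80 (SE 0.0635; adjusted p = 0.00395). Kif11, Birc5, Cdc25c, Bub1b and Ube2c fell by 0.47, 0.32, 0.29, 0.29 and 0.28. This comparison shares the deficient clones with the first and the differentiating clones with the second, so its values follow from theirs. Without clone A6, 0 members and 0 genes were called. The rise of Anln turned to -0.31 without normalization between arrays, and that of Nusap1 to -0.01 with the mean of its probes. The other, dimmer probes of Nusap1 and Anln went the opposite way between the states, by -0.42 and -0.24. Endoderm markers rose for 14 of 15 genes and pluripotency markers fell for 9 of 14, and cell cycle inhibitors were higher for 7 of 17 and lower for 1.

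**Figure D5:**
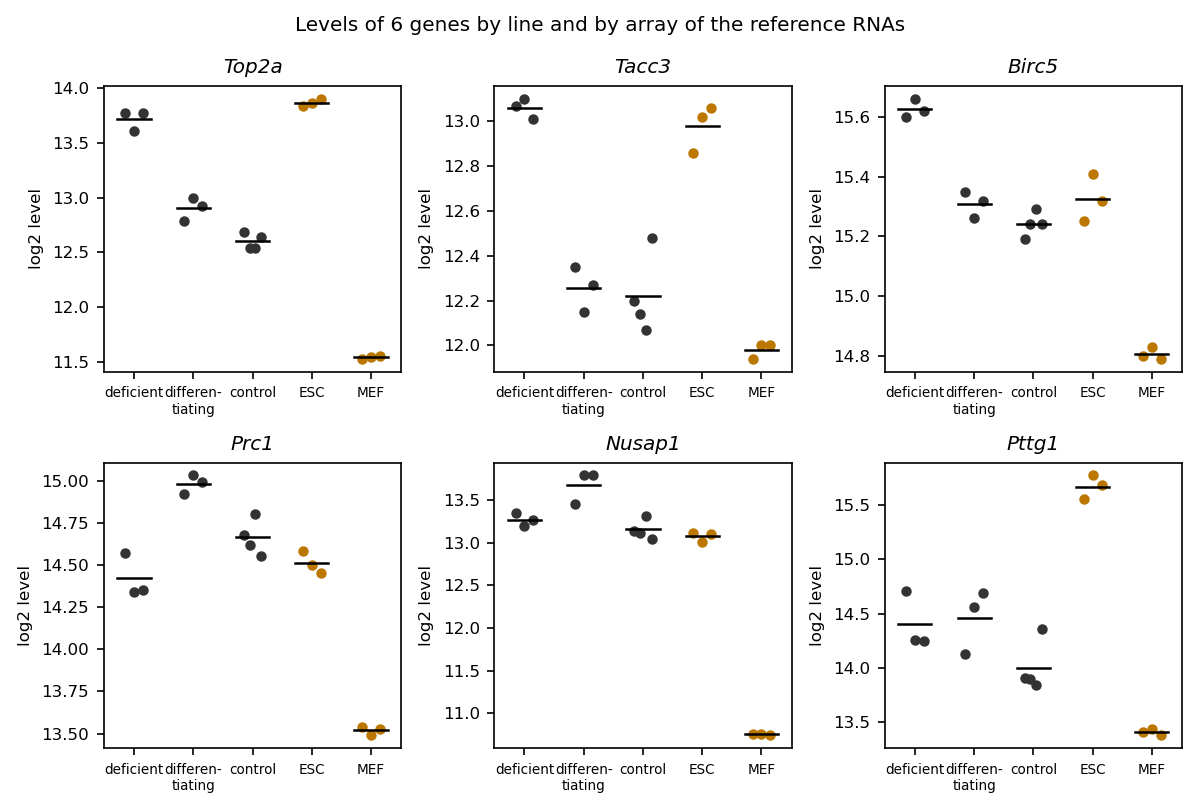
Log2 levels of 6 members, with a point per line for the iPSC groups and a point per array for the ESC and MEF reference RNAs, and a bar at the mean; each panel has its own axis, which does not start at 0. With the chosen probes, Top2a, Tacc3 and Birc5 are highest among iPSC in the deficient clones, Prc1 and Nusap1 in the differentiating clones, and Pttg1 is highest in ESC. A dimmer Nusap1 probe, not shown, was higher in the deficient than in the differentiating clones.

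Set against V6.5 ESC, on the same slides and scan day, the deficient clones had 3 members called higher (8.57%) and 4 lower (11.4%). Of all genes, 3.54% were called higher and 1.87% lower. The median difference was -0.04, beside 0.03 over all genes. Pttg1, the securin that holds back separase, had by far the largest difference. It was at 14.71, 14.26 and 14.25 in clones 8, A6 and B2, and at 15.55, 15.77 and 15.68 in the ESC channels of the same arrays, a fitted difference of -1.25 ± 0.19 (SE; adjusted p = 0.0011). All ESC channels lay above all clones. Control and differentiating lines, at 13.84 to 14.36 and 14.13 to 14.69, were also below ESC. Anln was lower (-0.46 ± 0.0906; adjusted p = 0.00637), and both calls held with any 1 clone left out. The cyclins Ccnb2 (-0.32 ± 0.0762; adjusted p = 0.0199) and Ccna2 (-0.27 ± 0.0645; adjusted p = 0.0225) were lower too, and each passed in 1 of 3 fits with a clone left out.

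Called higher than in ESC were 2 of 3 members grouped under centromere and kinetochore and 1 of 3 of the passenger complex. The rest of these groups, Cenpf (0.01), Incenp (0.01) and Aurkb (-0.1), were not called. Cenpe was at 15, 14.88 and 15.55 against an ESC level of 14.42, or 0.75 ± 0.19 (adjusted p = 0.0301), with clone B2 well above the other clones. Its other 2 probes differed by 0.25 and 0.22. Cenpa differed by 0.37 ± 0.103 (adjusted p = 0.0472) and Birc5 by 0.33 ± 0.0793 (adjusted p = 0.0241). These 3 were called in 0 of 3 fits with a clone left out, and 0 of the 35 members were called from the 3 arrays alone. Calls over all genes in the fit of 3 arrays are not given here, so its count of 0 is not a result about the members. Top2a and Tacc3, which differed most from the control lines, differed from ESC by -0.08 ± 0.0774 and 0.19 ± 0.115. The ESC level lay within the range of the 10 iPSC values for 24 of 35 members, above it for 8 and below it for Ccnb1, Cenpa and Cenpe. Over all 24967 genes it lay within the range for 17591, above it for 2295 and below it for 5081. The share of members within the range is thus close to that of all genes. Control lines and differentiating clones in this range were read on the other scan day. Of 80 other G2 and M phase genes 5 were higher and 1 lower than in ESC. As with MEF, the ESC was a single RNA in 1 dye, so its own spread was not measured.

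Across the 10 iPSC values the members varied about as much as other genes. The median SD of a member was 0.157 on the log2 scale, beside 0.164 over all genes. The widest range was that of Top2a (1.23), followed by Bub1b (1.08), Tacc3 (1.03), Cenpe (0.92) and Pttg1 (0.88), and the narrowest that of Bub3 (0.16), Ccna2 (0.26) and Cdc20 (0.32). Cdc20, the activator of the anaphase promoting complex, thus stayed between 15.64 and 15.97 in all iPSC and was at 13.96 in MEF. Control line 6 lay outside the range of control lines 3 to 5 for 26 of the members (74.3%), above it for 13 and below it for 13, beside 71.1% of all genes.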

How the data were processed

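RNA of 12 lines and states was read on 18 Agilent 2-colour arrays (design 014868). Per the file headers, Agilent Feature Extraction 10.1.1.1 gave each spot's mean and background intensity in both dyes, not yet normalized. The processed signal intensity was background-subtracted and dye-normalized, per the file headers. The authors also deposited a log2 ratio per probe and array, whose centring and direction are not stated; against the scanner values its sign followed the deficient clone over the other channel. The submitters' processing notes name limma.

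Here mean intensities were background-corrected (normexp, offset 50), loess-normalized within and Aquantile-normalized between arrays with limma 3.58.1 in R 4.3.3. Aquantile gives every array the same distribution of average signal. Control spots and outliers had weight 0. Of 41174 non-control probes 36965 were kept: those that the scanner marked as above background in a share of 0.5 or more of the channels of any RNA kind. Gene names followed RefSeq by accession for 14928 genes, by symbol for 2547 and by synonym for 1273, and 6219 kept the files' name. Channels were fitted separately (correlation within spots 0.812, dye as a term), so that each line in each state had 1 log2 value. Lines were compared with limma, two-sided, the states of the clones as pairs. For ESC and MEF, limma was fitted to log ratios over the 18 arrays together; the dye effect in it comes from the second day. P-values of the comparisons between lines measure the spread between these lines and clones, which the labels do not describe further. Those against ESC and MEF rest on a spread shared by the 18 arrays. Most of these arrays are repeat reads of differentiating clones against control lines, so that spread mixes repeat arrays with lines.

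The members and lists were chosen with earlier results of these data known. All 35 members are given, with Dnmt3a and Dnmt3b. Of other lists at most 3 called genes with the largest change per direction are named. No 2 of the 18 arrays held identical signals. The fits were tested on simulated data with the same design, where false calls exceeded the nominal share, most of all against the single MEF RNA. The alternatives were processed signals, no normalization between arrays, no filter, the mean of probes, lines left out, slide and replicate block, 3 arrays alone and the deposited table. The number of lines and arrays limits the precision.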

Additional observations from a re-analysis of the deposited data

Results flagged for a closer look

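In the 4 control lines, 6 of 35 members had a line whose gap to the other 3, as a share of the whole range, passed Dixon's critical value (17.1%); chance gives about 1 in 20, and 9.71% of all genes passed. Control line 6 was the line in 5 of them (14.3% of members, beside 7.5% of all genes). It was higher than lines 3 to 5 for Mad2l1 (13.29 against 13.00 to 13.02), Ccnb1 (13.89 against 13.53 to 13.56), Kif4 (12.45 against 11.95 to 12.02) and Pttg1 (14.36 against 13.84 to 13.91). It was lower for Plk1 (14.52 against 14.92 to 14.98). Control line 5 was higher for Mki67 (14.42 against 14.17 to 14.20). All 6 values are log2 levels. Only Pttg1 was called in a comparison other than that with MEF, the one with ESC, which does not use control lines.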

How the results depend on the processing

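Calls against MEF held in the alternatives fitted for that comparison, with 34 or 35 members. Normalization between arrays leaves the log ratios of the MEF and ESC fits unchanged, so that setting could not alter their calls. Slide block, replicate block and control lines left out were not fitted for MEF. For deficient against control iPSC, the 10 higher and 1 lower became 31 and 0 without normalization between arrays, 5 and 0 with slide as a random block, and 4 and 0 with the replicate block, fitted on samples numbered 1 and 2, where the fit without it called 5. Deviations of samples with the same number had a correlation of -0.0738 between the groups. The number stands for dye and partner RNA in the deficient clones and for slide in the control lines. Neither this value nor the block can therefore show whether the samples pair. The 1 lower member was 0 with processed signals or no filter. Leaving out a line gave 6 to 16 higher and 0 to 1 lower. For differentiating clones against control, the 5 higher became 0 with processed signals, 2 without normalization between arrays and 18 in the deposited table (2 lower); leaving out a line gave 0 to 11. Between states, the 4 higher and 7 lower became 2 and 26 without normalization between arrays and 2 and 11 with the mean of probes; leaving out a clone gave 0 to 6 higher and 0 to 8 lower. There Nusap1 turned to -0.01 and Anln to -0.05 with the mean of probes, and Anln to -0.31 without normalization between arrays. For ESC, the 3 arrays alone gave 0 and 0, and leaving out a clone gave 0 higher and 2 to 4 lower. The cause of these changes was not tested. Shares of all genes called in these settings are not given beside the counts, so a change in a count is not a result about the members alone. Errors from repeat arrays of the same lines, or of 1 reference RNA, leave out the spread between cultures.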
